A study of Mus musculus with 19 samples.

Results

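The homeostatic surface and secreted markers of retinal microglia were followed from the unlasered retina to day 3 after laser-induced choroidal neovascularization (CNV d3). The 10 genes were chosen by name: *Tmem119*, *Cx3cr1*, *Siglech*, *Fcrls*, *Gpr34*, *Slc2a5* and *Selplg* encode proteins of the cell surface, *Olfml3* and *Sparc* encode secreted proteins, and *Crybb1* encodes a beta-crystallin. Each name matched 1 row, so the markers were 10 of the 27299 genes measured. Bulk RNA-seq was made from microglia of 6 control samples and 6 CNV d3 samples, sorted from the retina by flow cytometry as CD45lo CD11b+ CX3CR1+ Ly6C- Ly6G- cells. In the CNV d3 group each eye had received 6 laser burns, and only the central retina of lasered and unlasered eyes was used. All mice, controls included, were 8 weeks old by the labels and the methods and carried *Cx3cr1* GFP/+ by the methods, in which GFP replaces the coding sequence of 1 of the alleles of *Cx3cr1*, while the labels name C57BL/6J and CD45+ cells. By the methods, *Cx3cr1* itself was thus expressed from a single intact allele in both groups, and CX3CR1 was also part of the sort gate. No label says which animals a sample came from, so p-values measure the spread between these samples.

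Microglia are macrophages that live permanently in neural tissue. In the undisturbed retina they are kept in a surveying state by signals of their surroundings, among them TGF-beta and ligands of the CSF1 receptor, and this homeostatic state is recognized by a set of genes that other macrophages express weakly or not at all. The set contains receptors that read neuronal and lipid signals, a sugar transporter, adhesion molecules and matrix proteins, and many of its genes are known to be lowered when microglia respond to injury.

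Reads assigned to genes numbered between 10963178 and 22335233 in control and between 23532260 and 29523018 in CNV d3, so every CNV d3 sample was deeper than every control sample. The calls of the 10 genes were the same after all samples had been thinned to the shallowest. The lowest number of reads for any of the 10 genes in any sample was 623 and none was at 0. Normalized counts are reads divided by a factor for the depth of the sample. The summed level of 8 pan-macrophage genes (*Ptprc*, *Itgam*, *Aif1*, *Csf1r* and others) was 454277 to 498011 normalized counts in control and 345679 to 470569 in CNV d3. *Csf1r*, which was not part of the gate, was the largest item of that sum in every sample. *Itgam*, which encodes CD11b of the gate, was increased, with means of 6403 in control and 10544 in CNV d3. *Spi1* was decreased, with means of 8345 and 6510, and the rest of the 8 did not pass the test. Of 14 monocyte markers, 9 were increased in CNV d3 and none was decreased, and their summed level was 1919 to 2634 normalized counts in control and between 8352 (replicate 1) and 56623 (replicate 3) in CNV d3. *Fn1* was the largest item of that sum in all 6 CNV d3 samples, and without it the ranges were 1912 to 2602 and 4321 to 9233. *Ly6c2*, *F10* and *Chil3* were at 0 in all control samples, and *Ly6c2* reached at most 25.1 normalized counts in CNV d3. All 8 cell division markers were increased as well, and summed to 97.4 to 951 in control and 8520.3 to 21363 in CNV d3. The part of these genes in the results below was not tested, and in bulk samples fewer cells of a type and less RNA per cell cannot be told apart.

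Of the 10 markers, 6 were decreased in CNV d3, none was increased and 4 did not pass the test. *Slc2a5*, *Gpr34*, *Tmem119*, *Selplg*, *Cx3cr1* and *Siglech* decreased to between 36.4% and 70.2% of their control level, and for each of them all 6 CNV d3 samples lay below all 6 control samples. *Fcrls*, *Olfml3*, *Sparc* and *Crybb1* overlapped between the groups. All genes of the data were fitted with limma on the scale log2(normalized counts + 1), and a Benjamini-Hochberg adjusted p (padj) under 0.05 was the threshold. By this rule 4.57% of all genes were decreased and 8.29% were increased, and 2.83% of all genes had every CNV d3 value below every control value. Among the 3038 genes with a mean at least as high as that of *Crybb1*, the lowest of the 10, these shares were 16.2% decreased and 23.3% increased. The median log2 fold change was -0.68 over the 10 markers, 0.15 over all genes and 0.07 over these 3038 genes. None of the 10 reached a log2 fold change below -1.5 with an adjusted p under 0.05, the thresholds by which the study defined a decreased differentially expressed gene (DEG) and which 1.07% of all genes passed. The share of all reads that fell on the 10 genes was 3.38% to 3.47% in control and 1.88% to 2.73% in CNV d3.

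**Figure D1:**
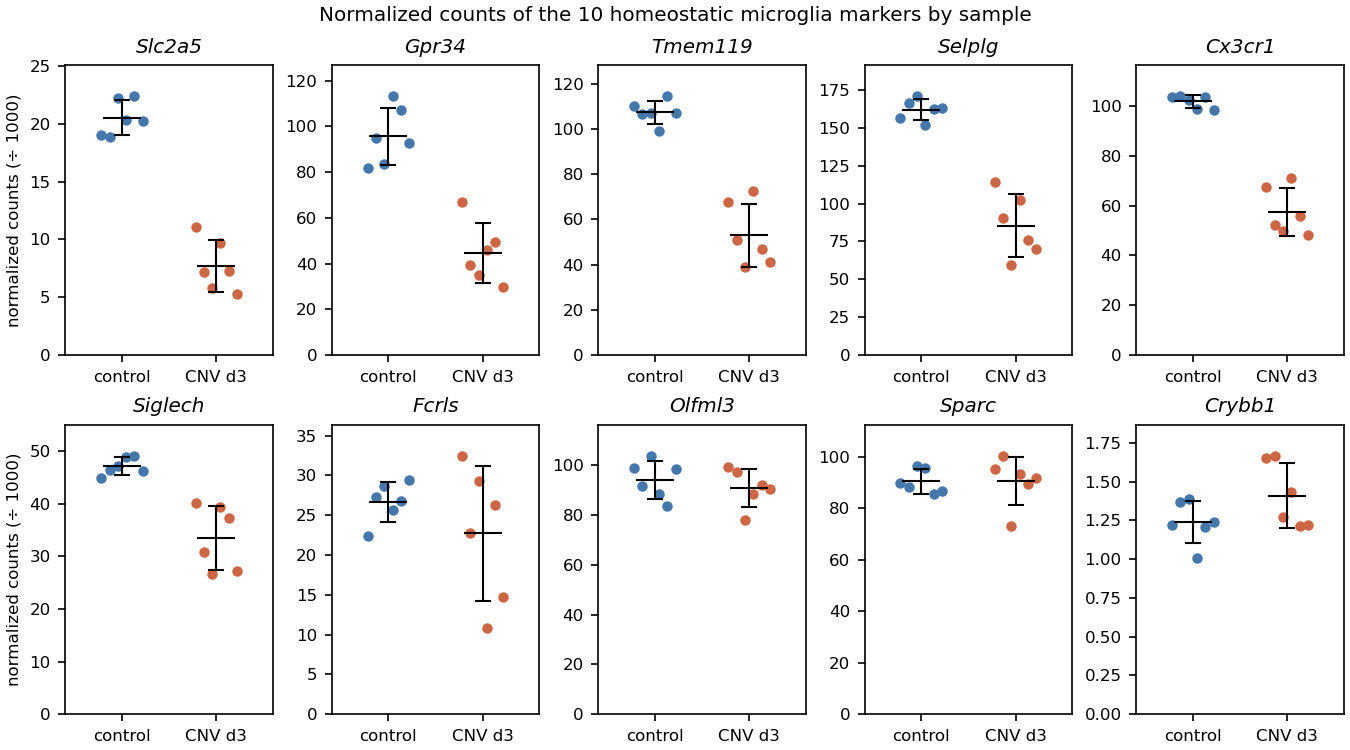
Normalized counts divided by 1000 (y-axis, from 0, own scale per gene) of each of the 10 markers in the 6 control samples (blue) and the 6 CNV d3 samples (orange), with mean and SD in black. The panels run from the most decreased gene, *Slc2a5*, to *Crybb1*, and the groups are apart from *Slc2a5* to *Siglech* and overlap in the last 4 panels.

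RefSeq promoter windows (GRCm38.p6, 250 bases before and 50 after the start of the gene) were at hand for 7 of the 10 genes. The start is that of RefSeq, which for *Sparc* lies 3103 bases and for *Cx3cr1* 1583 bases inside the gene as Gencode bounds it, for *Fcrls* 214 bases and for the other 4 at most 61 bases. *Slc2a5* and *Cx3cr1* are shown as genes that decreased, and *Sparc* and *Crybb1* as genes that did not pass the test, all 5′ to 3′ on the strand of the gene. Capitals mark the letters of a searched motif. In *Cx3cr1* this is a loose MEF2 pattern (CTA, then any 4 bases, then its reverse complement). The MEF2 motif itself has only A or T at these 4 bases, and the match in *Cx3cr1* has a G among them. In *Crybb1*, and in *Sparc* on the other strand, the motif is TGCTGA (MAF half-site). The second run of capitals in *Crybb1* is the TATA box, TATAAA. The windows lie at chr4:150119094-150119393 (+) for *Slc2a5*, chr9:120068247-120068546 (-) for *Cx3cr1*, chr11:55420031-55420330 (-) for *Sparc* and chr5:112255570-112255869 (+) for *Crybb1*.
Slc2a5: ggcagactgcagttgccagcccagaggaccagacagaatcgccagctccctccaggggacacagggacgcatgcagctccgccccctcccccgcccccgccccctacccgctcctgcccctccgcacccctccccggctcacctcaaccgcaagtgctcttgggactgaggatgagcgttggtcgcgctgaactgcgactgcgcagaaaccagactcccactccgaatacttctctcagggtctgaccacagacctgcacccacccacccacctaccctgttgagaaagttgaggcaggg
Cx3cr1: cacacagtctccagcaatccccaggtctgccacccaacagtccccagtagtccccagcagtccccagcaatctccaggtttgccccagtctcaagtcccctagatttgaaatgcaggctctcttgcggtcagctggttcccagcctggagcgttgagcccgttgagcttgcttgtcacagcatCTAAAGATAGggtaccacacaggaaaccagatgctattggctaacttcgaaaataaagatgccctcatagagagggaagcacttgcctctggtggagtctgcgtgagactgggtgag
Sparc: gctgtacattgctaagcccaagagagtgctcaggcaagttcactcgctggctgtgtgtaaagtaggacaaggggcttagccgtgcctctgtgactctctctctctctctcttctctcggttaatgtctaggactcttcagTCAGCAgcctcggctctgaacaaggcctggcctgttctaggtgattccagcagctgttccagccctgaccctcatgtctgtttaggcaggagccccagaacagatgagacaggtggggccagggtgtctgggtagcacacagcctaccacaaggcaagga
Crybb1: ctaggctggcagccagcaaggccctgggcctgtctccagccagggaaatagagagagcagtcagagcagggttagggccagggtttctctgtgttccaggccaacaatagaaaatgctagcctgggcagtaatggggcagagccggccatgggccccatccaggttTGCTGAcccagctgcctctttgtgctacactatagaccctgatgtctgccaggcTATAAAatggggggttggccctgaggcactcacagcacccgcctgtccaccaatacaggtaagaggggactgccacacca

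These motifs and AGGAAG (ETS core), GAGGAAGT (PU.1, which contains the ETS core), TGANTCA (AP-1) and IRF (GAAA and again GAAA with 2 bases between) were searched on both strands of 32851 windows of the same length. The loose MEF2 pattern was found in 3.69% of all windows and among the markers in that of *Cx3cr1*, 67 bases before the start. The TATA box was found in 13.6% of all windows and in those of *Crybb1*, 30 bases before the start, and *Fcrls*, 217 bases before it. The MAF half-site was in 19.5% of all windows and in those of *Crybb1*, *Fcrls* and *Sparc*. The ETS core was in 35.4% of all windows and in those of *Fcrls*, with 4 copies, and *Olfml3*. The letters of PU.1, AP-1 and IRF, held by 3.20%, 7.81% and 3.44% of all windows, were in none of the 7, and the windows of *Slc2a5* and *Siglech* had no match to any of the motifs. A match is a description of letters, not of binding.

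Among the receptors, *Gpr34* (ENSMUSG00000040229, chrX:13632089-13640858, + strand) had the steepest decrease. It encodes a G protein-coupled receptor for lysophosphatidylserine. Its level in control was lowest at 81937, at a median of 93984 and highest at 113176 normalized counts, and in CNV d3 it was lowest at 29841, at a median of 42722 and highest at 66955. The groups did not overlap, with replicate 1 highest and replicate 6 lowest in CNV d3 (log2FC = -1.15, SE 0.16, padj = 2.65e-04). The 95% confidence interval of the decrease ran from -1.48 to -0.81, or from 35.8% to 57.0% of the control level. *Gpr34* lies inside the span of *Cask* on the other strand, and no exon of another gene overlaps its exons.

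*Cx3cr1* (ENSMUSG00000052336, chr9:119901616-120069879, - strand) encodes the receptor for fractalkine, through which neurons act on microglia. It was the steadiest of the 10 in control, between 98448 and 104018 normalized counts with a median of 103054. In CNV d3 it was lowest at 48298, at a median of 54026 and highest at 70988, again with no overlap (log2FC = -0.84, SE 0.089, padj = 3.88e-05). The mean of 57441 ± 9571 (SD, n = 6) was 55.7% of that in control, 101929 ± 2529 (SD, n = 6). An exon of *Cx3cr1* shares 78 bases with *Gm33858*, an antisense gene, and counting did not use strand, so that reads there cannot be assigned.

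*Siglech* (ENSMUSG00000051504, chr7:55768178-55778925, + strand), a sialic acid-binding lectin that signals through the adaptor DAP12, was the least decreased of the 6. It ranged from 44914 to 49195 normalized counts in control (median 46840) and from 26649 to 40157 in CNV d3 (median 34059). The gap between the groups was narrow, with CNV d3 replicates 1 and 4 nearest to control and replicates 3 and 6 lowest (log2FC = -0.51, SE 0.10, padj = 0.0036, 95% CI -0.73 to -0.29). *Siglech* also marks plasmacytoid dendritic cells, whose other markers summed to 327 to 592 normalized counts in control and to 652 to 911 in CNV d3. By mean the largest item of that sum was *Lag3*, with 329 ± 71.1 in control and 471 ± 101 in CNV d3 (SD, n = 6 each). It did not pass the test (padj = 0.108). Of the 7 of them in the data, 2 were increased and *Ly6d* and *Klra17* were at 0 in all control samples.

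*Tmem119* (ENSMUSG00000054675, chr5:113793729-113800516, - strand) encodes a transmembrane protein that is widely used as a microglia marker. In control it ranged from 99098 to 114465 normalized counts (median 106973), and in CNV d3 from 38810 in replicate 3 to 72446 in replicate 4 (median 48739). The highest CNV d3 sample was thus below the lowest control sample (log2FC = -1.06, SE 0.13, padj = 1.36e-04, 95% CI -1.34 to -0.78). The mean fell from 107362 ± 5065 to 52910 ± 13943 (SD, n = 6 each).

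*Selplg* (ENSMUSG00000048163, chr5:113818536-113832644, - strand) encodes PSGL-1, the selectin ligand of leukocytes. It ranged from 151988 to 170828 normalized counts in control (median 162805) and from 59361 to 114130 in CNV d3 (median 83057), with no overlap (log2FC = -0.96, SE 0.13, padj = 2.06e-04). *Selplg* lies 18019 bases from *Tmem119* on the same strand, with *Gm19931* as the only annotated gene between them. The profiles of *Selplg* and *Tmem119* over the 12 samples, each centred on its own mean, differed by a root mean square of 0.10 on the log2 scale. This was the second closest of the 45 pairs of markers, and the ratio of *Tmem119* to *Selplg* within a sample overlapped between the groups. *Gm19931* itself, named for its position, had 7.82 ± 11.4 normalized counts in control and 3.64 ± 2.43 in CNV d3 (SD, n = 6 each), and did not pass the test (padj = 0.945).

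*Slc2a5* (ENSMUSG00000028976, chr4:150119283-150144169, + strand), whose product GLUT5 transports fructose, had the largest decrease of the 10. Control samples ranged from 18894 to 22400.0 normalized counts (median 20292) and CNV d3 samples from 5280.0 in replicate 6 to 11059 in replicate 1 (median 7236). The highest CNV d3 value was thus far below the lowest control value (log2FC = -1.46, SE 0.15, padj = 3.44e-05). The 95% CI of -1.78 to -1.13 included the DEG threshold of -1.5, and *Slc2a5* passed that threshold when CNV d3 replicate 1 or 4 was left out, at a log2FC of -1.57 and -1.53 respectively. It fell from the 106th to the 391st place among all genes by mean normalized count.

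**Figure D2:**
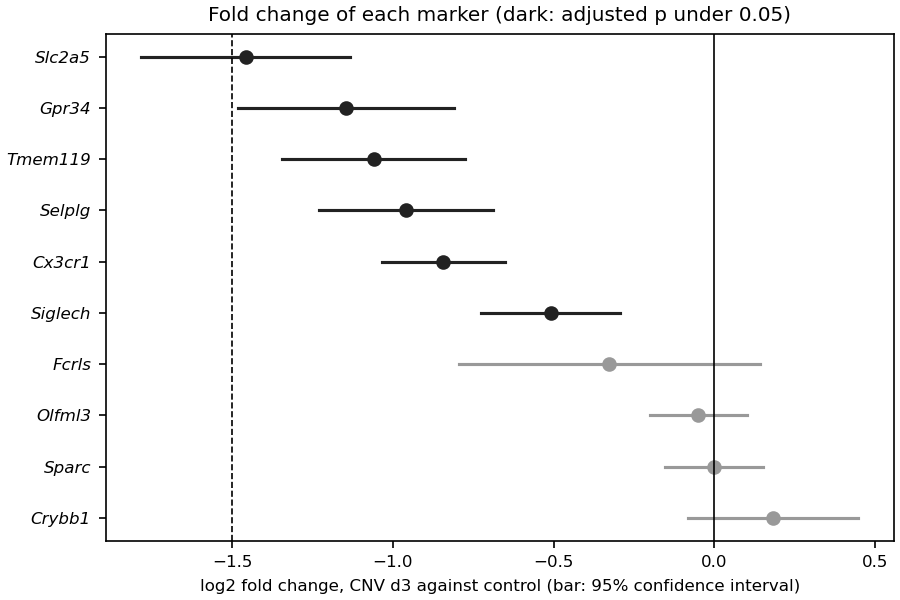
Log2 fold change of CNV d3 against control (x-axis) with its 95% confidence interval for each marker, dark where the adjusted p of limma was under 0.05; the dashed line is the DEG threshold of -1.5. The interval of *Slc2a5* alone among the 10 spans the dashed line, and those of *Fcrls*, *Olfml3*, *Sparc* and *Crybb1* include 0.

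*Sparc* and *Olfml3*, the markers that encode secreted proteins, did not pass the test, and neither did *Fcrls* and *Crybb1*. *Sparc* (ENSMUSG00000018593, chr11:55394500-55423183, - strand) encodes a matricellular protein that binds collagen. It ranged from 85606 to 96434 normalized counts in control (median 88845) and from 73200 in replicate 3 to 100402 in replicate 2 of CNV d3 (median 92382). The 2 ranges overlapped nearly whole, and the difference of -0.002 on the log2 scale (SE 0.071, padj = 0.986) had a 95% CI of -0.15 to 0.15, which leaves 89.9% to 111% of the control level. *Sparc* is also known from endothelial cells and fibroblasts. The summed level of 7 endothelial markers was 521 to 990 normalized counts in control and 480 to 970 in CNV d3, with 1 increased and 1 decreased. That of 6 pericyte and fibroblast markers was 1.00 to 16.1 and 103 to 359, with 1 increased and *Lum* at 0 in all control samples. The increased gene was *Cspg4*, with 0.54 ± 0.93 normalized counts in control and 224 ± 105 in CNV d3 (SD, n = 6 each). It made up nearly all of the sum in CNV d3, where the others had means of at most 2.92. The part of such cells in the level of *Sparc* was not tested.

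*Olfml3* (ENSMUSG00000027848, chr3:103722222-103738001, - strand) encodes an olfactomedin-like matrix glycoprotein. Its range was 83424 to 103841 normalized counts in control (median 94882) and 77764 to 99429 in CNV d3 (median 91273). Only replicate 3 of CNV d3 lay below the lowest control sample (log2FC = -0.05, SE 0.070, padj = 0.637, 95% CI -0.20 to 0.10). *Olfml3* and *Sparc* were the closest pair of the 10 over the 12 samples, with a root mean square difference of 0.088, and their ratio within a sample overlapped between the groups.

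*Fcrls* (ENSMUSG00000015852, chr3:87250758-87263738, - strand), an Fc receptor-like scavenger receptor, was the most variable of the 10 in CNV d3. It ranged from 22388 to 29475 normalized counts in control (median 27004) and from 10816 in replicate 4 to 32487 in replicate 1 of CNV d3 (median 24555). Replicates 4 and 6 of CNV d3 were below all control samples, replicate 1 was above all of them, and the other 3 were within the control range. The difference did not pass the test (log2FC = -0.33, SE 0.22, padj = 0.401), and its 95% CI of -0.80 to 0.14 held decreases as large as that of *Siglech*. Replicates 4 and 6 were also the CNV d3 samples with the highest summed level of 8 photoreceptor genes, 12371 and 10545 normalized counts, against 568 to 4387 in the other 4 and 818 to 7256 in control. The 4387 was in replicate 3 of CNV d3 and the 7256 in replicate 3 of control. In both, *Fcrls* was the second highest of its group, at 29337 and 28645 normalized counts. None of these 8 photoreceptor genes passed the test, and their part in the spread of *Fcrls* was not tested.

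*Crybb1* (ENSMUSG00000029343, chr5:112255815-112269585, + strand), a structural protein of the lens that is also transcribed in microglia, had the lowest level. It ranged from 1009 to 1391 normalized counts in control (median 1230.0) and from 1213 to 1668 in CNV d3 (median 1352). Of the CNV d3 samples, replicates 1, 2 and 4 were above all control samples and the others were within their range (log2FC = 0.18, SE 0.12, padj = 0.405, 95% CI -0.08 to 0.45). It was the only 1 of the 10 with a higher mean in CNV d3 on the log2 scale. The summed level of 12 lens markers was 346 to 860 normalized counts in control and 729 to 1044 in CNV d3, with 2 increased, and 6 of them, among them *Crygb*, *Crygc*, *Crygd* and *Cryba1*, were at 0 in all control samples. *Cryba4*, given below, was by far the largest item of that sum in every sample. Among 11 other crystallin genes, only *Crym* passed the test as increased, and the beta-crystallin *Cryba4* had 594 ± 173 in control and 854 ± 88.3 in CNV d3 (SD, n = 6 each, padj = 0.0623).

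Single markers were also compared by a two-sided exact permutation test of the mean log2(normalized counts + 1) over all 924 ways to label 6 of the 12 samples. The p was 0.00216 for each of the 6 decreased markers, which is the smallest this design can give. It was 0.303 for *Fcrls*, 0.50 for *Olfml3*, 0.978 for *Sparc* and 0.128 for *Crybb1*, each by the same exact test.

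Levels of different genes were compared per length, as reads per kilobase of exons, scaled to the reads of the sample (RPKM). In control the order was *Tmem119* (2122), *Gpr34* (2094), *Selplg* (1734), *Sparc* (1091), *Cx3cr1* (1035), *Olfml3* (699), *Siglech* (638), *Fcrls* (523), *Slc2a5* (276) and *Crybb1* (57.5). *Tmem119* was above *Gpr34* in 4 of 6 control samples, *Sparc* above *Cx3cr1* in 5 of 6 and *Olfml3* above *Siglech* in 4 of 6, so these neighbours were not separated, while the other neighbours kept their order in all 6. In CNV d3 *Sparc* came first with 1113 ± 105 RPKM (SD, n = 6). It was followed by *Tmem119* (1064), *Gpr34* (989) and *Selplg* (929), and *Sparc* was above *Tmem119* in 4 of 6 samples, so that these 4 were not separated. *Olfml3* (687) stood before *Cx3cr1* (594) in CNV d3 in 5 of 6 samples, so these were not separated, while *Cx3cr1* was above *Olfml3* in all 6 of control. *Siglech* (462) and *Fcrls* (454) were not separated in CNV d3 either. *Slc2a5* fell to 106 RPKM and stayed above *Crybb1* (66.6) in all 6 samples. With the longest transcript as length, 5 of the 10 kept their rank in control, where *Selplg* then came first, and *Sparc* was first in CNV d3 by either length.

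**Figure D3:**
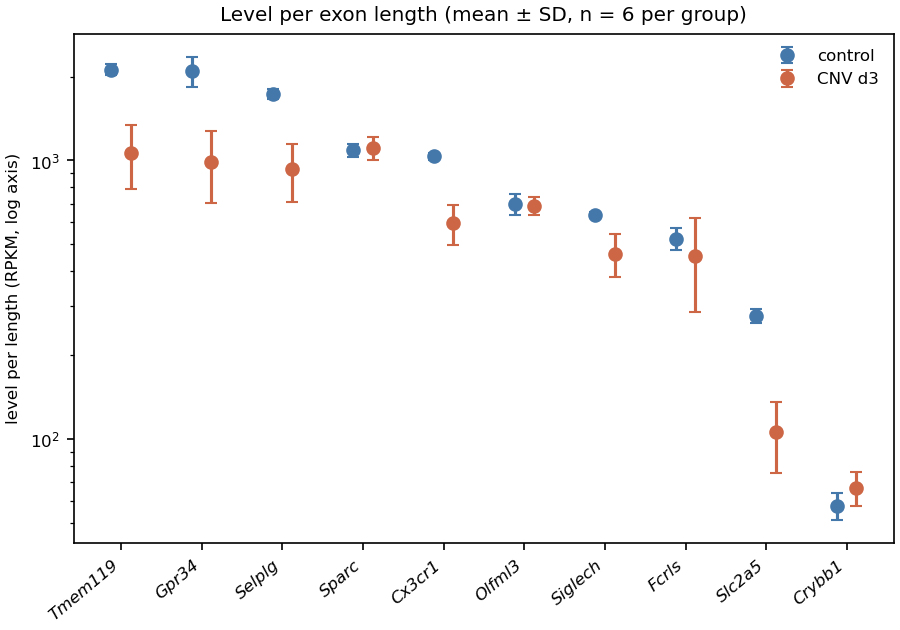
Level per exon length (RPKM, log axis) of each marker in control (blue) and CNV d3 (orange), as mean and SD of 6 samples, in the order of the control means. *Tmem119* and *Gpr34* lead in control, and in CNV d3 they lie at the level of *Sparc*.

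The comparison within a sample does not depend on the factor for depth. Relative to *Olfml3*, the log2 ratio of each of the 6 decreased markers was lower in all CNV d3 samples than in all control samples. *Olfml3* is itself a marker that did not differ between the groups in these samples, so these ratios restate the decreases and are not a separate test. The mean ratio of *Slc2a5* to *Olfml3* was -2.19 ± 0.17 in control and -3.60 ± 0.36 in CNV d3 on the log2 scale (SD, n = 6 each), and that of *Siglech* to *Olfml3* was -0.99 ± 0.16 and -1.45 ± 0.22. The ratios of *Fcrls*, *Sparc* and *Crybb1* to *Olfml3* overlapped between the groups. The decreased markers did not all move by the same amount: the mean log2 ratio of *Siglech* in CNV d3 was higher than in control by 0.55 to *Tmem119* and by 0.95 to *Slc2a5*, and that of *Slc2a5* to *Tmem119* differed by -0.40, each with no overlap between the groups. The ratios of *Cx3cr1* and *Gpr34* to *Tmem119* overlapped.

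Samples of CNV d3 differed more in these genes than control samples did. The SD of log2(normalized counts + 1) was larger in CNV d3 for all 10, from 1.07 times that of control for *Olfml3* to 6.48 times for *Cx3cr1*. For *Cx3cr1* the control SD was 0.036, where the median gene of like level had 0.125. Its SD in CNV d3 was 0.233, against 0.174 for genes of like level. Of the 271 genes with a mean of at least 10000, which leaves out *Crybb1*, 58.7% had the larger SD in CNV d3. In CNV d3 the SD was 0.37 for *Tmem119*, 0.41 for *Gpr34* and *Slc2a5* and 0.62 for *Fcrls*, where the median gene of like level had 0.17, 0.16, 0.16 and 0.16. *Olfml3* (0.13) and *Sparc* (0.16) were below that of genes of like level, 0.18 for both. Replicates 1 and 4 were the highest of CNV d3 for *Tmem119*, *Cx3cr1*, *Siglech*, *Slc2a5* and *Selplg*, and replicates 3 and 6 were the lowest for these and for *Gpr34*. The same replicates 1 and 4 had the lowest summed level of the monocyte list, 8352 and 8485 normalized counts, and replicates 3 and 6 the highest, 56623 and 42143. The 8 cell division markers were also lowest in replicates 1 and 4, with 8520.3 and 10516, and highest in replicates 3 and 6, with 19177 and 21363. The part of these genes in the order of the samples was not tested. With replicates 3 and 6 left out, a comparison added after the values were seen, the same 6 markers were decreased, *Slc2a5* by 1.24, *Tmem119* by 0.88 and *Siglech* by 0.36 on the log2 scale.

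**Figure D4:**
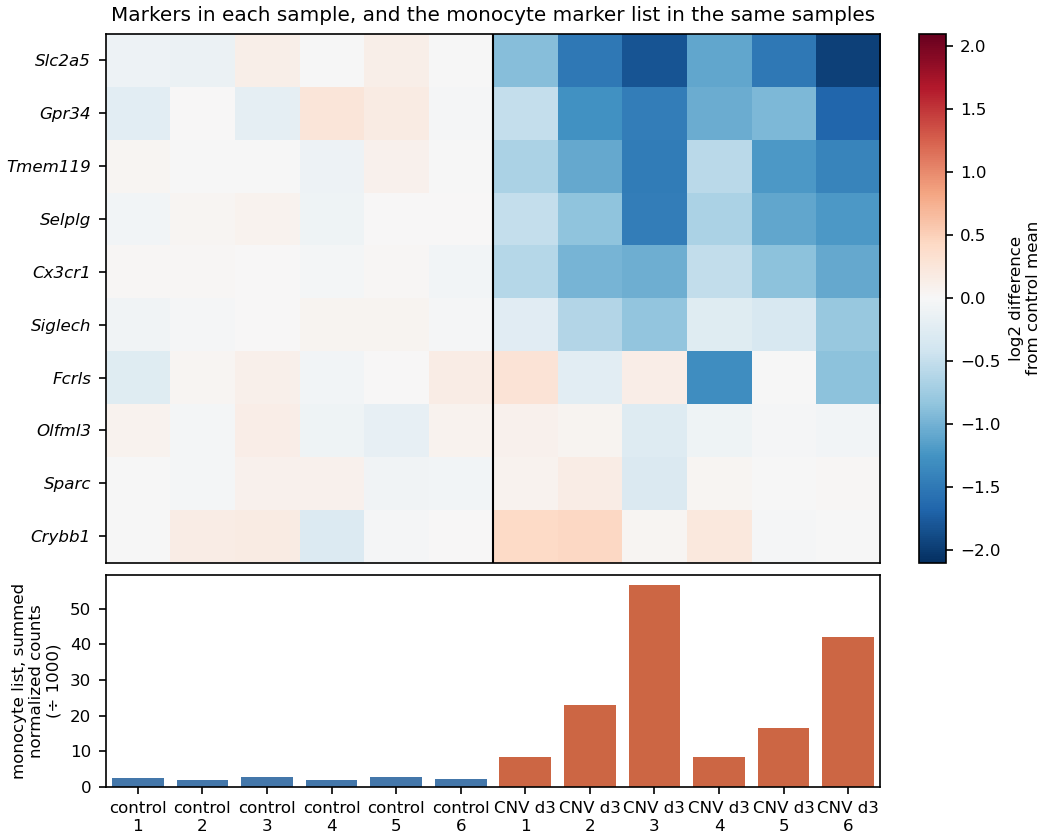
Upper panel, log2 difference of each marker (rows) from its control mean in each of the 12 samples (columns), blue for lower and red for higher; lower panel, summed normalized counts divided by 1000 of 14 monocyte markers in the same samples. The values of *Slc2a5* in CNV d3 run from -0.89 in replicate 1 to -1.96 in replicate 6, and *Fcrls* is lowest in replicate 4 at -1.30.

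A list of 40 other genes of homeostatic microglia, which holds none of the 10, was read in the same fit. Of these, 26 were decreased, 2 were increased and 12 did not pass the test, and 19 had all CNV d3 values below all control values. Their median log2 fold change was -0.53. Among the decreased genes with the highest mean were *Cst3* (cystatin C, log2FC = -1.47, padj = 9.03e-05), *Ctss* (cathepsin S, log2FC = -0.41, padj = 0.018) and the ADP receptor *P2ry12* (log2FC = -1.65, padj = 1.01e-05). Only *P2ry12* and *P2ry13* were decreased DEG. *Gas6*, a ligand of TAM receptors, and *Bin1*, a membrane-bending protein, were the increased genes, with 0.64 (padj = 6.23e-04) and 0.43 (padj = 0.0014). The receptor for TGF-beta decreased in both of its chains, *Tgfbr1* with a log2FC of -0.85 (padj = 0.0018) and *Tgfbr2* with -0.45 (padj = 0.0025). Genes that did not pass included *Csf1r* (-0.20, padj = 0.157) and *C1qb* (0.01, padj = 0.931).

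**Figure D5:**
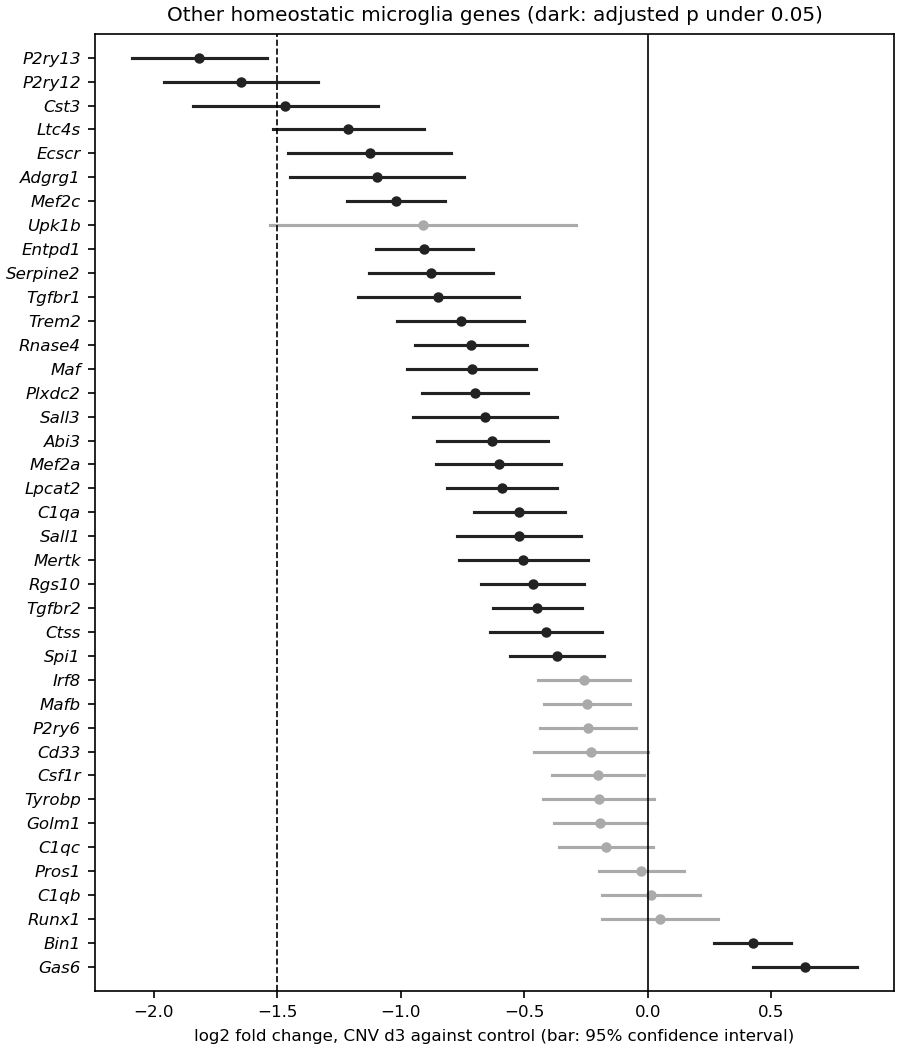
Log2 fold change of CNV d3 against control (x-axis) with its 95% confidence interval for 39 of the 40 other homeostatic microglia genes, dark where the adjusted p of limma was under 0.05; the dashed line is the DEG threshold of -1.5. The range runs from *P2ry13* at -1.82 to *Gas6* at 0.64, and 27 of the 39 are dark.

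Partners of the markers moved in both directions. Of 8 genes for ligands and for enzymes that handle them, *Cx3cl1* and *Thbs1* were increased and *Abhd12* was decreased. *Cx3cl1*, which encodes fractalkine, was at 0 in all control samples and between 2.22 and 54.8 normalized counts in CNV d3 (padj = 0.0025). *Selp*, the selectin that PSGL-1 binds, was at 0 in control and at most 8.31 in CNV d3. *Abhd12*, which degrades lysophosphatidylserine, the ligand of GPR34, was decreased (log2FC = -0.34, padj = 0.016). Of 17 intracellular partners, 6 were increased and 4 were decreased. *Gnai2*, an inhibitory G protein subunit downstream of chemokine and lysolipid receptors, was increased (log2FC = 0.62, padj = 5.86e-05), as was *Msn*, which encodes the linker moesin (log2FC = 0.40, padj = 0.0023). *St3gal6*, a sialyltransferase that modifies selectin ligands, was decreased with a log2FC of -0.90 (padj = 5.31e-04). Of the other enzymes that modify PSGL-1, *Gcnt1* (log2FC = -0.45, padj = 0.0062) and *Tpst2* (log2FC = -0.40, padj = 0.015) were decreased as well. *Tpst1* was increased (log2FC = 0.90, padj = 0.0042), as was *Fut7*, from 18.9 ± 28.0 to 81.8 ± 21.3 normalized counts (SD, n = 6 each, padj = 0.023). *Tyrobp*, which encodes the adaptor DAP12 of Siglec-H, had 26806 ± 4113 normalized counts in control and 23344 ± 3271 in CNV d3 (SD, n = 6 each, padj = 0.270).

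Relatives of the markers were compared by family. Among 7 receptors related to GPR34 or near it in function, *P2ry12*, *P2ry13* and *Gpr183* were decreased DEG and *Gpr171* and *P2ry10* were increased, the last 2 with means of 59.2 and 60.8 normalized counts in CNV d3. *Gpr183*, the receptor for oxysterols, fell from 10645 to 3804 (log2FC = -1.52, padj = 2.18e-05). Among 8 other chemokine receptors, *Ccr2* and *Ccr7* were increased. Of 7 other Siglecs, *Siglece* (log2FC = -0.80, padj = 1.44e-04) and *Mag* (log2FC = -0.61, padj = 0.048) were decreased and *Siglec1* was increased (log2FC = 2.52, padj = 0.0066). Among 6 other sugar transporters of the *Slc2a* family, *Slc2a1*, the common glucose transporter, was decreased (log2FC = -0.63, padj = 0.0020), and *Slc2a6* was increased from 1506 ± 282 to 4657 ± 1223 normalized counts (SD, n = 6 each; log2FC = 1.61, padj = 4.96e-05). None of 5 other Fc receptor-like genes passed the test, and *Fcrl1*, the highest of them, had 567 ± 237 and 307 ± 138 normalized counts. Of 9 relatives of *Sparc* and *Olfml3*, *Spock1*, *Sparcl1* and *Olfml2a* were increased, all with means under 200 normalized counts in CNV d3.

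The genes most like the markers were sought among 9703 genes with a mean of at least 100 normalized counts, by the root mean square difference of centred log2 profiles over the 12 samples. Nearest to the mean profile of the 10 were *Slc46a1* (0.067), *Lair1* (0.071), *Saraf* (0.078), *Pmp22* (0.090) and *Cd81* (0.097), with log2 fold changes between -0.68 and -0.48. For single markers the nearest gene was *Cd82* for *Cx3cr1* (0.097), *Hpgd* for *Gpr34* (0.11), *Cst3* for *Slc2a5* (0.14) and *1700017B05Rik* for *Selplg* (0.088). It was *Pld4* for *Sparc* (0.057), *Ctsz* for *Olfml3* (0.093), *Klhdc3* for *Crybb1* (0.12) and *Snapin* for *Fcrls* (0.25). *Fcrls* had the least similar nearest gene of the 10. The samples form a pair of groups, so a like difference between them counts toward this measure, and nothing is said of shared function.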

How the data were processed

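Retinal microglia of 6 control and 6 CNV d3 samples had been sequenced from amplified full-length cDNA. The authors mapped single reads with STAR 2.7.2b to the mouse genome GRCm38 with Gencode annotation, joined the alignments of 2 flow cells, obtained counts from featureCounts 1.6.4 at default settings (without strand, leaving out reads of more than 1 gene) and dropped genes that had no read anywhere. The deposited values are a signal, namely a read count divided by the DESeq2 size factor of the sample. The deposited group means, fold changes and p-values of the authors were not used. The labels name 12 entries for control and 7 for CNV d3, because all 6 control samples but only 1 CNV d3 sample, replicate 4, are entered in 2 parts, and the table has 1 column for each of the 12 samples. Entry in 2 parts thus nearly followed the group, and its part in the differences between the groups was not tested. Groups and replicate numbers came from the labels.

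All 27299 genes were fitted with limma 3.58.1 in R 4.3.3 on log2(value + 1), with a variance trend and Benjamini-Hochberg adjustment. A fold change on this scale can understate or overstate the change of low genes. *Fut7*, for example, had means of 18.9 and 81.8 normalized counts and a log2FC of 4.05. Values were whole multiples of the value of 1 read (tolerance 0.001 of that step), so reads were recovered and tested with edgeR 4.0.16, DESeq2 1.42.0 and limma voom as alternatives. The other alternatives were TMM and total-count scaling, pseudocounts of 0.5 and 10, a filter on low counts (10 normalized counts in 6 samples), no trend, thinning to the shallowest sample, the replicate block and dropping 1 sample at a time. The fits were tested on simulated data. Reads carry no molecular identifiers, so intervals cannot separate molecules from PCR copies.

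Positions and exon lengths came from Gencode M21 on GRCm38, which matched 27238 of the 27299 genes by identifier, and promoters from RefSeq. The 10 genes and all lists were chosen with earlier results of these data known. Named were the 10 markers, the nearest genes in likeness, for each list up to 4 genes of highest mean that passed, and ligands, partners or relatives set beside a marker. *Gm19931*, *P2ry13*, *Gas6*, *Bin1*, *Tgfbr1*, *Tgfbr2*, *Csf1r*, *C1qb*, *Fcrl1*, *Cryba4*, *Lag3* and the marker genes given as 0 in control were chosen after their values were seen. A few genes of the lists and of the likeness search are not reported here by name.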

Additional observations from a re-analysis of the deposited data

How the results depend on the processing

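The 6 decreased markers (*Slc2a5*, *Gpr34*, *Tmem119*, *Selplg*, *Cx3cr1* and *Siglech*) were decreased in all 24 alternatives, and no marker was increased in any. The largest adjusted p among them was 0.042, for *Siglech*. *Fcrls* did not pass in any alternative (log2FC -0.45 to -0.13), nor did *Olfml3*, *Sparc* or *Crybb1*, and the sign of *Sparc* and *Olfml3*, both near 0, varied. No marker was a decreased DEG, except 1, *Slc2a5*, when CNV d3 replicate 1 or 4 was left out, so the count without 1 sample was 0 to 1. No label says whether the replicate numbers shared by the groups pair the samples. Same-number correlations of deviations ran from -0.053 to 0.071, which cannot show whether such samples were handled together. With the replicate block all 10 calls were kept, and 975 genes were decreased and 1885 increased in place of 1247 and 2264.

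Over all genes, DESeq2 called 2170 decreased, 572 of them as DEG, where the count reported was 1247, with 293 DEG. Limma voom called 489 decreased DEG, and a pseudocount of 10 gave 600 increased DEG in place of 1068. Without CNV d3 replicates 3 and 6, an alternative chosen after seeing the data, 1124 genes were increased, 553 as DEG, and 688 decreased, 176 as DEG, with fewer samples. The counts without 1 sample were 1737 to 2319 increased, 1022 to 1455 decreased, 829 to 1041 increased DEG and 237 to 358 decreased DEG. With the longest transcript as length 5 of the 10 markers kept their place in the order of levels. The cause of these shifts was not tested. With 6 samples a group, the widest interval among the markers was that of *Fcrls*, and a moderate decrease of it was not detectable.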
